A study of Mus musculus with 2 samples.

Results

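Colon subepithelial myofibroblasts (SEMFs) with high Pdgfra are the fibroblasts that lie directly under the epithelium of the large intestine, and they were taken here as the 1105 cells of the mouse colon library whose deposited subcluster label is PDGFRa-hi SEMFs. They made up 18.4% of the 6018 annotated colon cells (exact Clopper-Pearson 95% interval 17.4 to 19.4), 19.7% of the 5611 colon fibroblasts and 1105 of the 15377 cells of the series. The series holds 2 droplet single-cell libraries, 1 from the colon and 1 from the small intestine of healthy, untreated mice, and both contain fresh live stromal cells sorted as negative for CD45 (an immune marker) and for Epcam (CD326, an epithelial marker). The enzyme digestion that freed the stroma lasted 60 minutes for the colon and 45 minutes for the small intestine. The number, strain, age and genotype of the animals are not given in the sources used here. The colon cells compared with the SEMFs were 3631 CD81- fibroblasts (FBs), 875 CD81+ trophocytes, 125 smooth muscle cells (SMCs), 217 lymphatic endothelial cells (LECs) and 53 blood endothelial cells (BECs), beside 8 pericytes and 4 proliferating cells that are too few to describe. The small intestinal library gave 1109 cells of the same SEMF label. The method behind the labels is not given in the sources used here.

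Subepithelial myofibroblasts carry contractile proteins and a high level of the PDGF receptor Pdgfra, and they secrete ligands that reach the epithelium across the basement membrane. BMP ligands drive epithelial cells toward differentiation, and BMP antagonists, R-spondins and most canonical Wnt ligands keep the stem cells at the crypt base dividing. Neuregulins are EGF family ligands that signal through ErbB receptors. Sox6 and Bmp3 on the one hand and Nrg1 and Ptprr (a receptor tyrosine phosphatase) on the other were used to split the label into classes.

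A UMI marks 1 captured RNA molecule. The label held 7436577 UMIs, with a median of 6345 UMIs (range 1615 to 22638) and 2476 genes per cell, and the median mitochondrial share was 3.48%. Levels are given as CPM, the UMIs of a gene summed over a set of cells per 1000000 UMIs of that set, and ratios as the log2 of the ratio of CPM with an exact conditional binomial 95% interval. With 1 library per tissue there is no replicate check and no test between conditions, so intervals and limits cover counting error only. The colon library held 2700 cells with Xist and no Y-linked UMI and 1751 with Y-linked UMIs and no Xist, and some values are given in these 2 sets of cells beside the pooled ones. The label took 19.3% of the former (17.8 to 20.8) and 18.4% of the latter (16.7 to 20.3). The 13 immediate early genes, which respond to dissociation, summed to 8670.1 CPM in SEMFs, 8832 in CD81- FBs and 21778 in trophocytes. The libraries shared 21 cell barcodes, 1 of them between SEMFs of both.

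The label matched its markers in most respects. Of the 6 label markers, 5 were highest in SEMFs among the 6 colon types with at least 50 cells. Pdgfra stood at 1137 CPM against 257 in CD81- FBs and 330.3 in trophocytes, and Sox6, a transcription factor, at 1462 against 26.5 and 8.01. Bmp3 stood at 225 CPM against 2.15 and 2.67, and Bmp7 at 189 against 27.3 and 1.57. Nrg1 reached 305 CPM against 44.9 in CD81- FBs and 124 in SMCs. The exception was Ptprr, at 68.4 CPM in SEMFs and 204 in the 53 BECs. With every cell thinned to 3000 UMIs (45 SEMFs were shallower and left out), Sox6 was seen in 86.2% of SEMFs, 6.12% of CD81- FBs and 2.45% of trophocytes. Without thinning these shares were 91.3%, 11.6% and 5.03%, at median depths of 6345, 6697 and 7186 UMIs. Ptprr was seen in 117 of the 1060 thinned SEMFs, 34 of 3463 CD81- FBs and 0 of 817 trophocytes.

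Among 13 further PDGFRa-high markers 10 were highest in SEMFs. They include Foxl1, a forkhead factor of the subepithelial layer, at 66.3 CPM against 4.86 in CD81- FBs, and F3 (tissue factor) at 630.3 against 53.3. Agt was higher in SMCs (198 against 145 CPM), and Cpm was near 0 in SEMFs (2.82 CPM). Frzb, a secreted Wnt antagonist, was low at 1.21 CPM against 30.4 in CD81- FBs. Several lists of markers of other cell types were near 0: the summed levels were 7.40 CPM for 6 immune genes, 2.15 for 5 epithelial genes, 9.28 for 6 lymphatic genes and 23.5 for 7 blood endothelial genes. The 7 trophocyte markers summed to 41.4 CPM against 3561 in trophocytes, and the 6 smooth muscle markers to 176.7 against 6426 in SMCs. The 7 pericyte markers summed to 156.9 CPM against 678.5 in SMCs. The 3 markers of interstitial cells of Cajal summed to 166.2 CPM, above the 51.8 of SMCs, with Ano1 at 52.8 CPM, Etv1 at 113 and Kit, their defining marker, at 0.269. The 5 listed markers of CD81- FBs did not set the 2 types apart. They summed to 8653 CPM in SEMFs and 10251 in CD81- FBs, and 3 of the 5 were highest in SEMFs. Among the 5, Procr stood at 626 CPM in SEMFs and 16.1 in CD81- FBs.

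**Figure D1:**
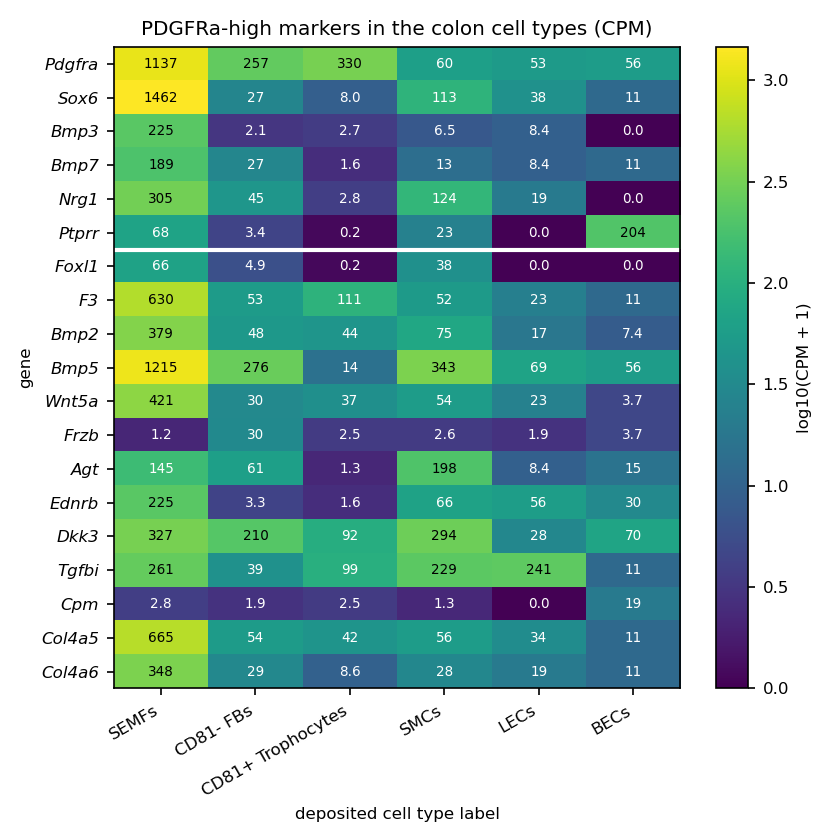
Level (CPM, printed in each cell and coloured by log10 of CPM + 1) of the 6 label markers above the white line and 13 further PDGFRa-high markers below it, in the 6 colon cell types with at least 50 cells. SEMFs hold the highest value for 15 of the 19 genes, and the exceptions are Ptprr, Frzb, Agt and Cpm.

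SEMFs were then set against the 4506 other colon fibroblasts (CD81- FBs and trophocytes pooled). A gene was called different when its log2 ratio passed 1 in either direction, among the 11984 genes with at least 100 UMIs in both sets together. Of these, 14.8% were called, 6.18% (741 genes) as higher in SEMFs and 8.65% (1037 genes) as lower. The deposited subcluster labels are taken to rest on the RNA of these cells, though their method is not given. The comparison therefore describes the label and does not test it.

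Contractile genes were mostly higher in SEMFs: 10 of the 12 with enough UMIs were higher and 1 was lower, with a median log2 ratio of 2.09 against 0.08 over all genes. Tagln (transgelin, an actin-binding protein of smooth muscle) stood at 1120 CPM in SEMFs and 29.0 in the other fibroblasts, a log2 ratio of 5.27 (95% interval 5.17 to 5.37). Acta2 (smooth muscle actin) stood at 1426 and 61.2 CPM, and Myl9, a myosin light chain, at 459 and 24.8. The myosin kinase Mylk (371 and 34.7 CPM) and the heavy chain Myh11 (76.4 and 5.15) were also higher. The muscle intermediate filament gene Des was lower, at 1.34 CPM against 33.5. In SMCs of the same library Tagln stood at 7086 CPM and Acta2 at 9629, above the SEMFs. Casq2, a calcium store protein of muscle, was also among the 20 genes with the largest ratios, at 186 against 4.22 CPM.

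Of 12 BMP and activin ligands 6 were higher and 1 was lower. Bmp5 stood at 1215 CPM against 222, Bmp2 at 379 against 47.2, and Bmp3 at 225 against 2.25, a log2 ratio of 6.64 (95% interval 6.30 to 7.01). Inhba, an activin subunit, stood at 59.6 against 8.01 CPM. Bmp4 differed less, at 838 against 621 CPM (log2 ratio 0.43). Gdf10 was not detected in SEMFs (0 of 7436577 UMIs, which allows up to 0.403 CPM, against 67.5 CPM in trophocytes). The BMP antagonists split, with 3 of 9 higher and 3 lower. Grem1, an antagonist made by trophocytes, was seen at 4.71 CPM against 384, a log2 ratio of -6.35 (95% interval -6.87 to -5.87), whereas Nbl1 (1466 and 305 CPM), Twsg1 (455 and 139) and Fst (22.9 and 1.71) were higher. None of the 8 BMP receptor genes was called higher, and Bmpr1b was called lower.

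All 3 R-spondins with enough UMIs were lower: Rspo3 stood at 2.42 CPM against 60.0, Rspo1 at 0.134 against 6.92, and Rspo2 was not detected against 3.67. Of 8 Wnt ligands only Wnt5a was called higher, at 421 against 31.3 CPM (log2 ratio 3.75, 95% interval 3.65 to 3.86), and 4 were lower, among them Wnt2b (3.63 against 33.1 CPM) and Wnt2 (0.134 against 20.3). Of 7 secreted Wnt inhibitors 2 were higher and 4 lower. Wif1 stood at 32.8 CPM against 0.193 and Dkk2 at 14.7 against 3.83, while Sfrp1 stood at 24.7 against 806.

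EGF family ligands were called higher in 4 of 6 cases and lower in 1. Nrg1 stood at 305 CPM against 36.3, its relative Nrg2 at 148 against 5.82, Ereg (epiregulin) at 159.9 against 72.8 and Btc (betacellulin) at 31.5 against 5.54. Hbegf was lower at 5.51 against 27.3 CPM. Among FGF ligands Fgf9 was called higher (132 against 10.4 CPM), as was Fgf1 (19.2 against 8.4), and Fgf18 was lower. All 4 endothelin genes with enough UMIs were higher. The ligand Edn3 stood at 39.5 CPM against 4.86, the receptors Ednrb at 225 against 2.96 (log2 ratio 6.25, 95% interval 5.95 to 6.57) and Ednra at 281 against 68.8, and the processing enzyme Ece1 at 383 against 106.

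The basement membrane chains Col4a5 (665 against 51.2 CPM) and Col4a6 (348 against 24.6) were higher, as was Lama5, 3 of 21 basement membrane genes with 5 lower, while Col4a1 was level at 651 and 657. Of 8 fibrillar collagens 1, Col24a1, was higher and none lower. Of 19 other matrix genes none was higher and 9 were lower. Mgp (matrix Gla protein) stood at 66.7 CPM against 2756, Col14a1 at 14.3 against 603, and Eln (elastin) at 26.4 against 462. The complement gene C3 (5.65 against 387 CPM) and Edil3, a secreted matrix protein (6.45 against 449), were among the 10 lowest by the ranking. All 7 trophocyte markers were lower. Of 14 chemokines 7 were lower and 1, Cxcl14, was higher (600.1 against 119 CPM).

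Of 38 transcription factors 12 were higher and 13 lower. The forkhead factors Foxl1 (66.3 against 3.89 CPM), Foxf1 (256 against 109.9) and Foxf2 (114 against 33.1), which respond to Hedgehog signals in gut mesenchyme, were higher together with the Hedgehog receptor Ptch1 (472 against 222). Gli1, another Hedgehog target, was level at 32.9 and 32.5 CPM, and Hhip was lower at 13.9 against 41.5. The retinol carrier Rbp4 stood at 1153 CPM against 82.7, and Aldh1a1, which makes retinoic acid, at 427 against 74.8. The calcium-activated chloride channel Ano1 stood at 52.8 CPM against 0.418. Pericyte potassium channel genes were also higher, Kcnj8 at 53.7 against 6.76 CPM and Abcc9 at 60.4 against 8.17, while the pericyte marker Rgs5 was lower at 4.84 against 33.7. All 34 genes ranked or listed as label markers in this comparison kept their direction in the Xist cells and in the Y-linked cells. These cells are part of those that ranked most of the genes, so this is no independent check.

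Inside the label, cells were classed by their UMIs of Sox6 plus Bmp3 and of Nrg1 plus Ptprr: a cell belonged to a class when it held at least 2 UMIs of that pair and at least 3 times those of the other. The Sox6/Bmp3 class held 796 cells, or 72.0% (69.3 to 74.7), and the Nrg1/Ptprr class 102 cells, or 9.23% (7.59 to 11.1). A further 149 cells (13.5%) held more even numbers of the 2 pairs and are called mixed, and 58 cells (5.25%) held under 2 UMIs of the 4 genes and are called low. The Nrg1/Ptprr class made up 9.81% of SEMFs with Xist (7.39 to 12.7) and 10.2% of those with Y-linked UMIs (7.14 to 14.0). These classes are ranges of a score and not separate types, since 196 of the 1105 cells (17.7%) would change class with 1 UMI more or less. The low cells were shallow, with a median of 3781 UMIs against 6309 in Sox6/Bmp3 cells and 7320 in Nrg1/Ptprr cells.

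**Figure D2:**
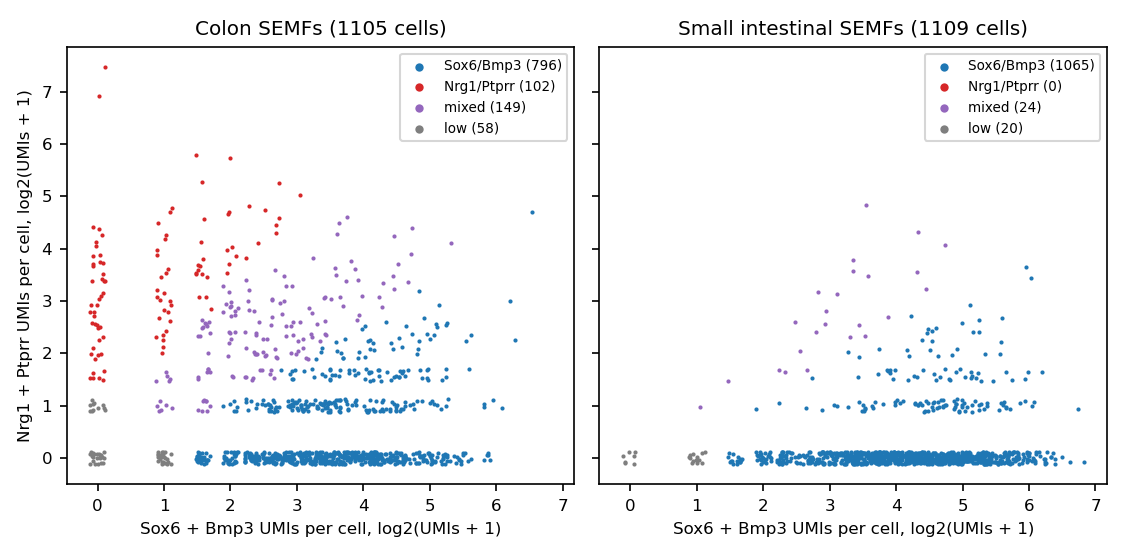
UMIs of Sox6 plus Bmp3 (horizontal) against UMIs of Nrg1 plus Ptprr (vertical) in each SEMF of the colon (left) and small intestine (right), both as log2(UMIs + 1) with a small random offset and coloured by class, with cell counts in the legend. The 102 Nrg1/Ptprr cells lie toward the upper left of the colon panel, and the small intestinal panel has 0.

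Cells with Nrg1 held Ptprr more often, and Bmp3 less often, than cells without it. At 3000 UMIs per cell, Ptprr was seen in 27.1% of the SEMFs with a Nrg1 UMI (22.6 to 32.1) and in 22 of the 710 without (1.95% to 4.65%). Bmp3 was seen in 22.9% of the cells with Nrg1 (18.6 to 27.6) and 51.1% of those without (47.4 to 54.9). Sox6 was seen in 60.7% of cells with Ptprr (51.2 to 69.6) and in 89.4% of those without (87.3 to 91.3), so Sox6 was lower but not absent in the Ptprr cells. Nrg1 itself stood at 79.2 CPM in Sox6/Bmp3 cells, 622 in mixed and 1522 in Nrg1/Ptprr cells, values fixed by the class rule. The largest single Nrg1/Ptprr cell held 183 of the 1179 Nrg1 UMIs of its class.

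The other genes of the 2 classes were compared with these 4 left out. Of 9353 genes with at least 50 UMIs in the classes together, 14.8% were called: 9.18% (859) as higher in Sox6/Bmp3 cells and 5.65% (528) as higher in Nrg1/Ptprr cells. Several label genes differed little between the classes. Pdgfra stood at 1140.2 CPM in Sox6/Bmp3 and 1121 in Nrg1/Ptprr cells (log2 ratio 0.03, 95% interval -0.08 to 0.13), Bmp7 at 186 and 199, Bmp5 at 1237 and 1159, F3 at 644 and 584, and Col4a6 at 357 and 349.9. Of the 11 further PDGFRa-high markers with enough UMIs, 5 were higher in Nrg1/Ptprr cells (Bmp2, Wnt5a, Agt, Ednrb and Tgfbi) and none in Sox6/Bmp3 cells, with a median log2 ratio of -0.60. Agt, the angiotensin precursor, stood at 496 against 58.2 CPM. Foxl1 was somewhat higher in Nrg1/Ptprr cells, at 98.1 against 64.5 CPM (log2 ratio -0.60, 95% interval -0.97 to -0.23).

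The contractile genes lay on the Sox6/Bmp3 side: 6 of 10 were higher there, none in the other class, and their median log2 ratio was 1.11 against 0.10 over all genes. Tagln stood at 1476 CPM in Sox6/Bmp3 cells, 220.1 in mixed cells and 14.2 in Nrg1/Ptprr cells, a log2 ratio of 6.70 (95% interval 5.86 to 7.70). It was seen in 79.8% of the former and 4.9% of the latter class. Acta2 stood at 1791 and 199 CPM, Myl9 at 556 and 89.1, Tpm2 (a tropomyosin) at 729 and 343, and Mylk at 424 and 192. Cald1 (1348 and 1266 CPM) and Tpm1 (774 and 519) were not called. The level of Tagln in Nrg1/Ptprr cells was below that of CD81- FBs (28.5 CPM), and Acta2 stayed above it (66.8).

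Smooth muscle genes are commonly driven by serum response factor through the CArG box, a run of A and T bases between CC and GG. The 250 bases before a listed start of 2 genes are shown because each holds a CArG box, in capitals. The genes are Myl9, from the contractile group, and Ptprr, from the opposite class, which it helps to define. Some genes, Ptprr among them, have several listed starts, and the first window with a box was taken. The windows are from RefSeq (GRCm38.p6), on the plus strand, at chr2:156775214-156775463 for Myl9 and chr10:116177008-116177257 for Ptprr.
Myl9: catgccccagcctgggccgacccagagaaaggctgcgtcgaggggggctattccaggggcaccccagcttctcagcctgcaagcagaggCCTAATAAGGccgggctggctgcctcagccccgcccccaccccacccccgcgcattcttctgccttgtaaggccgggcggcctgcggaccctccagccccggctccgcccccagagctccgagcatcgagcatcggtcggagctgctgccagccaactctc
Ptprr: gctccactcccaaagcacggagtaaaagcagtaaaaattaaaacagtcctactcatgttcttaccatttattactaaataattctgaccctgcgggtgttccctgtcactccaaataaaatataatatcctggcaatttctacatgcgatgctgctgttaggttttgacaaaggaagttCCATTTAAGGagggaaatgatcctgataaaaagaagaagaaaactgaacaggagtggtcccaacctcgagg
The box starts 161 bases before the start used for Myl9 and 71 bases before that used for Ptprr. A CArG box, which has the same form on both strands, is present in the window of 1.62% of the 27025 genes in the table. It was found for 1 of 11 contractile genes with a window (Myl9), 1 of 10 ranked and class-defining genes of the Sox6/Bmp3 side (Lama2) and 2 of 12 of the Nrg1/Ptprr side (Lef1 and Ptprr). The motif CTTTGAT of TCF and LEF factors, or its reverse complement, is in the windows of 3.72% of all genes, in those of Bnc2 and Sox6 and in none of the 12 genes of the Nrg1/Ptprr side. The third motif searched, TGTTTAC of forkhead factors or its reverse complement, is in the windows of 3.54% of all genes. It was found for 2 of 12 genes of the Nrg1/Ptprr side (Tspan8 and Ptprr, the latter in a window not shown). On the Sox6/Bmp3 side 0 of 10 held it, and 1 of 11 contractile genes did (Cald1). These matches describe the letters and say nothing of binding, and genes without an entry, such as Tagln and Lgr5, were not searched.

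Other genes highest in Sox6/Bmp3 cells by the ranking were Kcnq5, a potassium channel (239 against 3.87 CPM), Lama2, a laminin chain (849 against 46.5), Bnc2, a zinc finger factor (342 against 20.7), and Chsy3, a chondroitin synthase (1029 against 90.4). Aspn (asporin, a small matrix proteoglycan) stood at 1101 against 99.4 CPM and Thbd (thrombomodulin) at 633 against 63.3. Palmd had 0 UMIs in the 102 Nrg1/Ptprr cells, which put its log2 ratio at 4.48 or more at a floor of 3 counts in that class, from 86.5 CPM. Fzd2, a Wnt receptor, stood at 212 against 15.5 CPM. The other ranked genes on this side were Itm2a, Scn7a, Cacna1d, Hpse2, Acta2 and Ptgis. Beyond the ranking, the chemokine Cxcl12 (2857 against 465 CPM), Rbp4 (1412 against 194), Lum (lumican, 632 against 102) and Ednra (322 against 106) were higher in Sox6/Bmp3 cells. Edn3, the ligand of Ednrb, stood at 48.7 CPM with 0 UMIs in Nrg1/Ptprr cells, whereas Ednrb was higher in Nrg1/Ptprr cells (381 against 182 CPM).

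Fgf7, a growth factor for epithelial cells, was first by the ranking on the Nrg1/Ptprr side: it stood at 463 CPM there, 60.7 in mixed cells and 9.3 in Sox6/Bmp3 cells, a log2 ratio of -5.64 (95% interval -6.10 to -5.21). A Fgf7 UMI was seen in 72.5% of Nrg1/Ptprr and 5.28% of Sox6/Bmp3 cells, and the CPM of Fgf7 in CD81- FBs was 49.7. Lgr5, known as a stem cell receptor for R-spondins in the epithelium, stood at 80.0 CPM against 0.186, with a UMI in 21 of 102 and 1 of 796 cells. The 5 epithelial markers together gave 0 UMIs in the Nrg1/Ptprr cells, and 1 cell held 13 of the 62 Lgr5 UMIs. Lef1, a Wnt-responsive transcription factor, stood at 125 against 2.42 CPM and was seen in 48.0% and 1.38% of the cells.

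The mechanosensitive channel Piezo2 (221 against 9.11 CPM), the prostaglandin synthase Ptgs2 (643 against 48.3), the plasminogen activator Plau (330.5 against 23.4), the laminin chain Lama5 (172 against 11.7) and Igfbp6 (511 against 42.2) were also among the 15 on this side. So were Bcr, Otulinl, Spon1, Gm28710, Rgs2, Tspan8 and Slpi. Slpi rested on few cells: 11 of the 102 held a UMI and 1 held 35 of the 77.

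**Figure D3:**
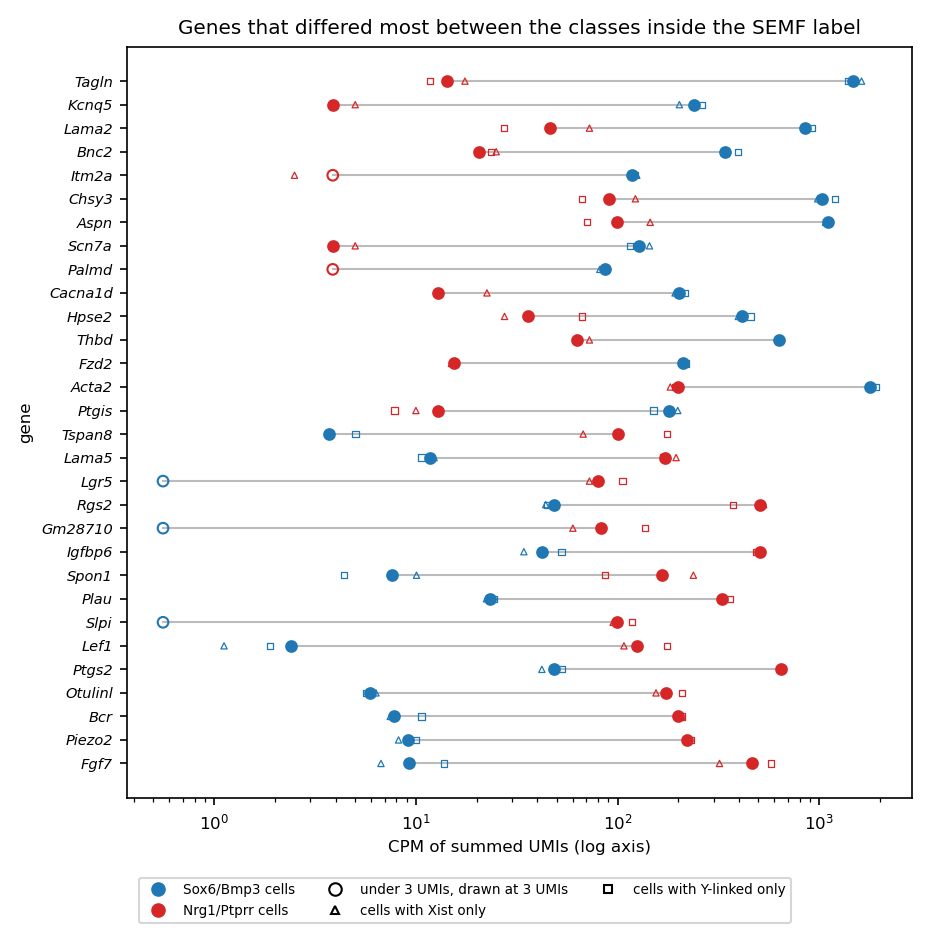
CPM of summed UMIs on a log axis for the 15 genes ranked highest on each side, in Sox6/Bmp3 (blue) and Nrg1/Ptprr (red) cells of the colon SEMF label, with open circles for a class with under 3 UMIs, drawn at 3 UMIs. Small triangles and squares give the same classes in cells with Xist only and with Y-linked UMIs only (values under 1 CPM are not drawn), and they keep the order of the classes for all 30 genes. Those cells are part of the cells that ranked the genes, so the kept order is no independent check.

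Lists of signalling genes differed between the classes in different directions. Of 4 Wnt ligands 3 were higher in Nrg1/Ptprr cells (2 in the cells with Xist and 2 in those with Y-linked UMIs): Wnt5a at 762 against 361 CPM, Wnt4 at 320.2 against 139 and Wnt5b at 189.8 against 58.4. The inhibitors Wif1 (44.4 CPM) and Dkk2 (19.0 CPM) were seen in Sox6/Bmp3 cells and had 0 UMIs in Nrg1/Ptprr cells, which allows up to 3.87 CPM. Bmp2 was higher in Nrg1/Ptprr cells (878 against 269 CPM), as was its antagonist Fst (45.2 against 10.2), while the antagonist Chrd was higher in Sox6/Bmp3 cells (45.2 against 2.58). The EGF family split, with Ereg (298 against 144 CPM) higher on the Nrg1/Ptprr side and Btc (39.4 against 1.29) on the other, and Nrg2 was level at 149 and 129. Some of these calls lay near the threshold: the log2 ratios of Wnt5a and Ednrb were -0.92 and -0.98 in cells with Xist, and that of Ereg was -0.62 in cells with Y-linked UMIs, where Wnt4 was also just inside the threshold and none of the 4 EGF family ligands was called higher in Nrg1/Ptprr cells. Vegfa (257 against 70.8 CPM), the stem cell factor Kitl (309.8 against 110.2), Ptgs1 (435 against 168) and the guidance cue Sema3a (74.9 against 1.86) were higher in Nrg1/Ptprr cells. The matrix gene Tnc (tenascin C) stood at 1836 against 511 CPM and Postn (periostin) at 1479 against 527. Ptgis, the prostacyclin synthase, went the other way at 180.2 against 12.9 CPM.

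**Figure D4:**
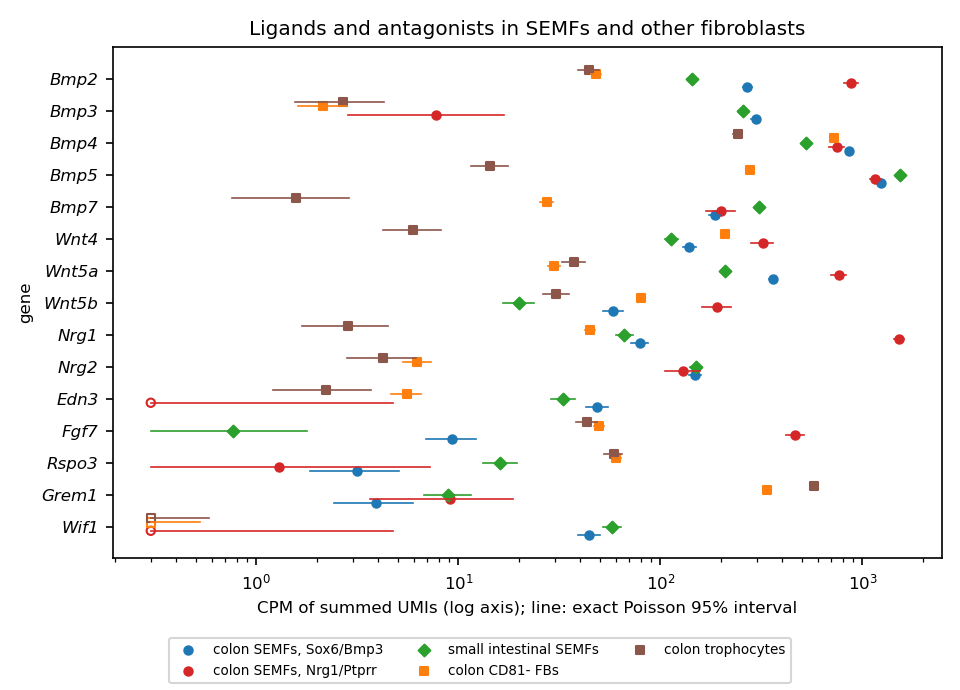
CPM on a log axis of BMP, Wnt, EGF and FGF family ligands, Edn3, Rspo3 and the antagonists Grem1 and Wif1 in the classes of colon SEMFs (blue and red circles), small intestinal SEMFs (green diamonds) and the other colon fibroblasts (squares), with exact Poisson 95% intervals as lines. Values under 0.3 CPM are drawn open at 0.3, and Nrg1 and Bmp3 take part in the class rule. Fgf7 stands apart in Nrg1/Ptprr cells, and Grem1 and Rspo3 are lower in every SEMF set than in the other fibroblasts.

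Immediate early genes, induced rapidly by stimulation and by tissue dissociation, moved with the classes. Of 13, 11 were higher in Nrg1/Ptprr cells and none in Sox6/Bmp3 cells, with a summed level of 18284 against 6409 CPM. Fos stood at 3044 against 830.1 CPM and Egr1 at 1797 against 381. Of 9 heat shock genes 4 were higher in Nrg1/Ptprr cells, with a summed level of 10033 against 4423 CPM. The BMP response genes moved the same way, with 7 of 9 higher in Nrg1/Ptprr cells and 1 lower, among them Id1 (1193 against 374 CPM), Id3 (2503 against 875) and Bambi (73.6 against 9.3). So did the Notch target Hes1 (1275 against 414 CPM). To set cells of like immediate early level side by side, the comparison was repeated in the 180 Sox6/Bmp3 and 27 Nrg1/Ptprr cells with 8000 to 20000 CPM of immediate early UMIs, in which the summed levels were 11936 and 13492 CPM.

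In these cells all 30 ranked genes kept their direction, with log2 ratios of 4.84 for Tagln, -4.96 for Fgf7 and -5.07 for Lef1. Lgr5 had 26 UMIs in these Nrg1/Ptprr cells and 0 in these Sox6/Bmp3 cells, which put its log2 ratio at -5.56 or below at a floor of 3 counts. These cells are part of those that ranked the genes. Counts for lists changed both ways: the Wnt response genes higher in Nrg1/Ptprr cells went from 2 to 4 of 5, the guidance cues from 5 to 7 of 17, and the BMP antagonists higher in Sox6/Bmp3 cells from 1 to 3 of 6. These counts include genes with under 50 UMIs in the matched cells, so no conclusion is drawn from their rise. Over all 4419 genes with at least 50 UMIs in the matched cells, 450 were called higher in Sox6/Bmp3 cells and 238 in Nrg1/Ptprr cells. The Wnt response gene Nkd1 passed the threshold with 9 UMIs in these Sox6/Bmp3 and 4 in these Nrg1/Ptprr cells. Its log2 ratio was -1.27, with an interval of -3.11 to 0.88 that spans no difference. Of the BMP response genes 3 of 9 were past the threshold and higher in Nrg1/Ptprr cells (Smad6, Smad7 and Bambi), and the log2 ratios of Id1 and Id3 were -0.72 and -0.77, inside the threshold. Of the 3 Wnt ligands Wnt5b was past it at -2.04, against -0.67 for Wnt4 and -0.87 for Wnt5a. Hes1 stood at -0.64, Bmp2 at -1.56, and 4 of the 10 contractile genes were higher in Sox6/Bmp3 cells, with Mylk (0.74) and Tpm2 (0.64) inside the threshold. The whole Nrg1/Ptprr class also had more trophocyte marker UMIs, with the 7 markers at 89.1 CPM in sum against 30.3 in Sox6/Bmp3 cells and 3561 in trophocytes. Cd81 made up most of it, at 55.5 against 2.23 CPM. The part of immediate early RNA and of trophocyte RNA in the remaining differences was not tested.

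The same contrast appeared when the 1105 cells were clustered with Sox6, Bmp3, Nrg1 and Ptprr left out. Of 5 clusters, cluster 4 (169 cells) held 86 of the 102 Nrg1/Ptprr cells, or 84.3% (75.8 to 90.8), with 56 mixed and 16 Sox6/Bmp3 cells. Its level of Nrg1 was 1094 CPM against 140.8 in all other SEMFs, of Ptprr 319 against 16.4, of Sox6 444 against 1673, and of Bmp3 20.3 against 267.5. With the immediate early and heat shock genes left out of the clustering as well, 1 cluster held 81.4% of the Nrg1/Ptprr cells. The share depended on the number of clusters, from 98.0% in the smaller of 2 clusters (408 cells) at a resolution of 0.25 to 47.1% in 1 of 11 at a resolution of 1.

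Sox6/Bmp3 cells were spread over clusters 1, 2 and 3, and the clusters were formed on most of the genes that follow, so their levels are descriptions. Cluster 1 (435 cells) led in contractile genes, with Tagln at 1897 CPM against 407 in cluster 2 and 1301 in cluster 3, and in Wif1 (68.5, 3.5 and 23.4). Cluster 2 (263 cells) held 70 of the 149 mixed cells and had intermediate Nrg1 (329 CPM) and Ptprr (43.7), with Spon2 at 395 against 92.6 in cluster 1. Cluster 3 (221 cells) had 0 Nrg1/Ptprr cells and led in Hoxd11, Kcnq5 (564 CPM), Hpse2 (1002) and Dkk2 (67.9), and Adamdec1 stood at 8546 CPM there against 2549.5 in cluster 1. Cluster 5 (17 cells) had more RNA of genes that were low in the label, with Igfbp4 at 599 CPM and Mfap5 at 149.7, and a median doublet score of 0.375 against 0.0234 to 0.0451 in the other 4. Leaving out its cells moved neither the counts of genes called against other fibroblasts nor those between the classes by more than 1.5 times.

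**Figure D5:**
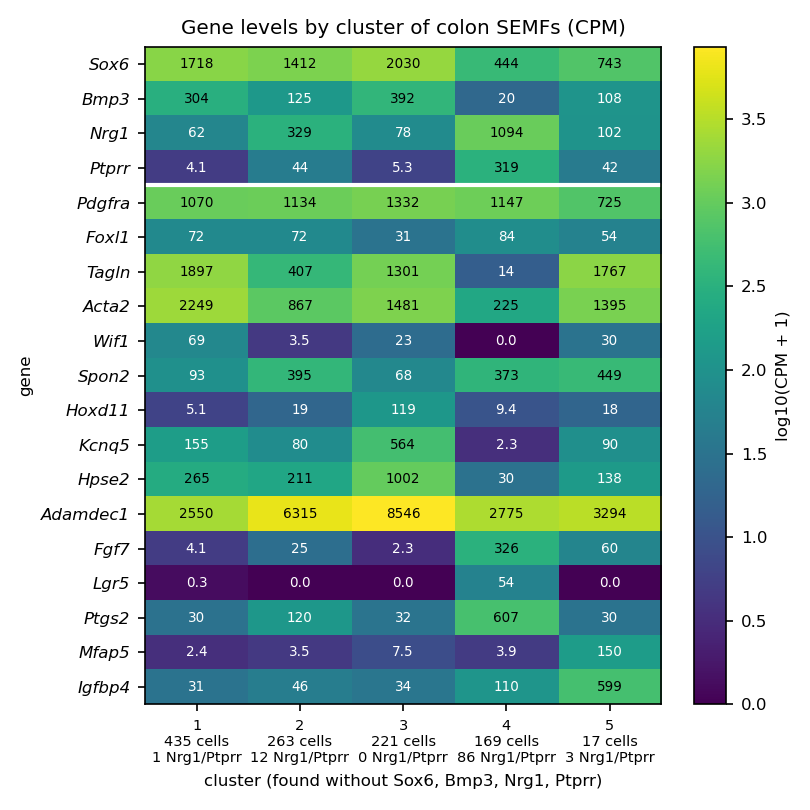
CPM by cluster of colon SEMFs (printed in each cell, coloured by log10 of CPM + 1) for the 4 class genes, which the clustering did not use (above the white line), and for 15 further genes. Cluster 4 holds 86 of the 102 Nrg1/Ptprr cells and the highest Nrg1 and Ptprr, and cluster 3 the highest Hoxd11.

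Hox genes, whose nested domains mark position along the gut, were read out in clusters 1 and 3 after Hoxd11 had been seen among the leading genes of cluster 3. Hoxd11 stood at 119 CPM in cluster 3 and 5.09 in cluster 1, Hoxd9 at 46.0 and 2.04, Hoxd8 at 37.7 and 2.71, and Hoxd10 at 33.2 and 3.05. Hoxa13 went the other way, at 14.3 and 46.1 CPM, and Hoxa10 differed little, at 67.2 and 77.3. The order of Hoxd11 held in cells with Xist (111.6 and 3.99 CPM) and in cells with Y-linked UMIs (119.3 and 3.38 CPM).

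Nrg1 was not restricted to the label. By the same class rule 169 of 3631 CD81- FBs (4.65%), 22 of 125 SMCs (17.6%) and 14 of 53 BECs (26.4%) counted as Nrg1/Ptprr cells (the BECs through Ptprr, with 0 Nrg1 UMIs), and 0 of 875 trophocytes did, which allows up to 0.343%. The 169 CD81- FBs had other levels than the Nrg1/Ptprr SEMFs. They held Nrg1 at 604 CPM and Ptprr at 39.3, but Fgf7 at 45.0 against 463 in the SEMFs, Lgr5 at 0 against 80.0, Foxl1 at 7.14 against 98.1 and Pdgfra at 313 against 1121. Lama2 stood at 584 CPM in these FBs and 46.5 in the SEMFs.

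The small intestinal SEMFs gave 1065 Sox6/Bmp3 cells of 1109 (96.0%, 94.7 to 97.1), 24 mixed and 20 low cells, and 0 Nrg1/Ptprr cells. The exact 95% interval of that last share reaches up to 0.332%. Their median depth was 5510 UMIs. Ptprr had 14 UMIs in 3 of these cells, Fgf7 had 5 UMIs in 5 cells and Lgr5 none. Of 10001 genes with at least 100 UMIs in the SEMFs of both libraries, 20.5% were called: 5.36% (536) as higher in the colon and 15.1% (1510) as lower. The median gene stood at a log2 ratio of -0.33, and a few transcripts took a large share of the colon UMIs. Gm42418, which overlaps ribosomal RNA repeats, stood at 77002 CPM in the colon and 1346 in the small intestine, and Cmss1 at 9356 and 209.6. With the median gene set at 0 the split became 843 higher and 708 lower, with those 2, AY036118, Cdk8 and Lars2 left out of the totals 639 and 1093, and with mean natural log values 75 and 84. Immediate early genes (9 of 13 higher) and heat shock genes (6 of 9 higher) were also higher in colon SEMFs, whose tissue was digested for longer, and tissue, digestion and library cannot be told apart.

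Among the label's signals, Sox6 was lower in the colon at 1462 CPM against 3519, as was Pdgfra at 1137 against 2778, with log2 ratios of -1.27 and -1.29, which fall inside the threshold relative to the median gene. Foxl1 was higher in the colon (66.3 against 14.3 CPM, log2 ratio 2.22, 95% interval 1.89 to 2.55), and so were Bmp2 (379 against 144) and Wnt5b (83.1 against 19.9). Bmp3 (225 and 255 CPM), Nrg2 (148 and 150.1) and Fgf9 (132 and 115) were not called. The endothelin receptors Ednra (281 against 943 CPM) and Ednrb (225 against 669) were lower in the colon. The laminin chain Lama2 was lower at 653 against 2375, Lama4 at 295 against 1192, and the pericyte channel genes Abcc9 (60.4 against 585) and Kcnj8 (53.7 against 392) were lower too. Pitx1, a homeobox factor, stood at 205 CPM against 0.92, and Postn at 779 against 31.6.

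The comparison was also made between the Sox6/Bmp3 cells of both libraries, an alternative added after the data had been seen. There the log2 ratio of Bmp2 went from 1.40 to 0.93, of Wnt5a from 1.01 to 0.83 and of Ptgs2 from 2.50 to 1.00. Pitx1 went from 7.80 to 7.86, Postn from 4.63 to 4.96, and Ednrb from -1.57 to -1.80. In these cells 378 genes were called higher in the colon and 1378 lower.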

How the data were processed

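Droplet 3' single-cell libraries of sorted stromal cells, 1 of mouse colon and 1 of small intestine, were used. Per the submitters' processing notes, Cell Ranger 7.1.0, Seurat 4 and the build mm10 were used; their settings and any removal of doublets are not given in the sources used here. The deposited tables hold raw UMI counts per cell and, as a second table, natural log values, which equal the natural log of 1 plus the count per 10000 UMIs of the cell. Cell types are the deposited labels, which are taken to be made from the RNA of these cells.

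UMIs were summed over the cells of each set and given as CPM, and log2 ratios carry exact conditional binomial 95% intervals (scipy 1.17.1, numpy 2.4.6 and pandas 2.3.3 in Python 3.11.15). With 1 library per tissue no test between conditions was run. Whether the cells came from 1 animal or several is not given. A gene was called past a log2 ratio of 1 with at least 100 UMIs in the 2 sets (50 for the classes). Genes were named by the rank of the log2 ratio with 10 CPM added to both sides, for genes with a UMI in at least 10% of the cells of the higher set: the 20 highest and 10 lowest against other fibroblasts, 15 each way between the classes and 8 each way between tissues, plus listed genes with at least 20 CPM in the label. Mitochondrial, ribosomal protein, haemoglobin, immunoglobulin and sex-linked transcripts were not ranked. Further genes of the lists below that level and Hox genes were named after their values were seen. Clustering used Leiden (scanpy 1.11.5, resolution 0.5) without the 4 class genes. Scrublet marked 1 of 6018 colon cells, too few to use as a caller, so no cell was removed and the 6% with the highest scores were left out as an alternative. The members and gene lists were chosen with earlier results of these data known. The intervals were tried only on counts simulated with Poisson error, the error that they assume. Uneven RNA between cells was not simulated, so this is no check of the intervals on these cells. Other scalings, minimums, class rules, thinning to 3000 UMIs and cell subsets were tried as alternatives.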

Additional observations from a re-analysis of the deposited data

Results flagged for a closer look

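For 9 named genes the SEMF label stood on opposite sides of the other fibroblasts in the colon and the small intestine, past a log2 ratio of 1 both ways. Only ranked genes and genes of the lists were searched, and the share over all genes was not computed. C7, Ccl11, Plcxd3, Brinp3 and Fgl2 had been ranked by their ratio between colon and small intestinal SEMFs. Their opposite sides therefore follow in part from that choice. The difference was not tested, since each tissue has 1 library. Values are the log2 ratio of SEMFs over other fibroblasts in the colon, then in the small intestine, and the difference of the 2.

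Of these, 3 were higher in SEMFs in the colon. Piezo2, a mechanosensitive channel, had 1.01 and -6.62 (difference 7.63). It stood at 41.8 CPM in colon SEMFs, with 221 CPM in Nrg1/Ptprr and 9.11 CPM in Sox6/Bmp3 cells, and at 393 CPM in the other fibroblasts of the small intestine. Fgl2, a secreted immune regulator, had 1.94 and -2.64 (difference 4.57), and the small heat shock gene Hspb1 1.31 and -2.11 (difference 3.42).

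The other 6 were lower in colon SEMFs. The complement gene C7 had -5.36 and 1.20 (difference -6.57), with 1.34 CPM in colon and 1033 in small intestinal SEMFs. The eosinophil attractant Ccl11 had -4.85 and 1.01 (difference -5.86) and the chemokine Ccl8 -2.84 and 1.38 (difference -4.22). Brinp3 had -6.27 and 1.02 (difference -7.29), from 1 UMI in colon SEMFs, and Plcxd3 -5.26 and 1.05 (difference -6.31). Lyz2, a macrophage lysozyme, had -1.32 and 3.42 (difference -4.74). Its level was 6.19 CPM in colon and 36.5 CPM in small intestinal SEMFs, and the part of immune cell RNA in it was not tested.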

How the results depend on the processing

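Counts of called genes depended on the threshold and the scale, and no gene past the threshold changed direction: 34 of 34 named genes against other fibroblasts (up to 14 alternatives), 30 of 32 between the classes (up to 18, the other 2 being Pdgfra and Bmp7 near 0) and 20 of 20 between tissues (up to 12) kept their sign. Most of these genes were ranked by their ratio in the same cells, so the kept signs are no independent check. Against other fibroblasts (741 higher, 1037 lower), the counts were 77 and 61 with means of natural log values, 1202 and 1737 with a minimum of 20 UMIs, 423 and 539 with 500 UMIs, and 255 and 505 past a log2 ratio of 2. Between the classes (859 and 528), they were 38 and 63, 813 lower at 20 UMIs, 159 and 111 at 500, and 248 and 143 past 2. They were 302 lower in cells with Y-linked UMIs, and 450 and 238 in cells matched on immediate early genes. Between tissues (536 and 1510), they were 843 and 708 with the median gene at 0, 75 and 84 with natural log means, 1089 higher at 20 UMIs, 234 and 703 at 500, 349 higher after thinning, and 207 and 219 past 2. The Nrg1/Ptprr class was 4.98% of the label when any UMI of 1 pair and none of the other was required. The label was 19.7% of fibroblasts. The cluster share was 98.0% at resolution 0.25 and 47.1% at 1. Fewer genes or cells enter at the higher minimums and in the subsets; the other causes were not tested. Totals without 5 transcripts, the matched cells, the removal of cluster 5, Sox6/Bmp3 cells between tissues and clustering without immediate early and heat shock genes were chosen after seeing the data. No paired analysis was possible because each tissue has 1 library.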
